A study of Mus musculus with 8 samples.

Results

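Lysosomal enzymes and membrane proteins were examined as a set of 36 genes, chosen by symbol from the 47706 genes of the count table and each found in 1 row. The set holds 11 peptidases, 9 glycosidases, 4 sulfatases or sulfamidases, 6 proteins of lipid handling, 5 proteins of the lysosomal membrane and the transcription factor Tfeb. RNA sequencing was run on primary calvarial osteoblasts, the bone-forming cells of the skull, in 4 samples given parathyroid hormone (PTH) and 4 given vehicle for 24 hours. The labels place all 8 samples at 7 days of adipogenic differentiation, whereas the study's methods describe osteogenic cultures that were briefly starved of serum before treatment. The sample names call all of them Con, which the labels do not explain, and neither strain, genotype nor age is in the labels. The labels also do not say whether the samples were separate cultures, so p-values measure the spread between these samples, which may be technical.

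Lysosomes are the acidic compartment in which cells break down proteins, glycans and lipids. Most of their soluble enzymes are tagged with mannose phosphate in the Golgi apparatus and carried to the compartment by receptors, and the vacuolar ATPase pumps in the protons that the enzymes need. TFEB and its relatives TFE3 and MITF bind an E-box with the core CACGTG, often preceded by GT, in the promoters of many of these genes. Osteoblasts use lysosomes for the turnover of collagen and of their own organelles, while osteoclasts, the bone-resorbing cells, secrete lysosomal enzymes onto bone.

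Because TFEB is both a regulator of this set and one of its members, the promoters were searched for its motif. RefSeq promoter windows (GRCm38.p6, from 250 bases before to 50 after the gene start) were found for 32 of the 36 genes, and not for Asah1, Ctsb, Ctsh and Npc1. The core CACGTG, which reads the same on both strands, lay in the windows of 11 of the 32 (34.4%) and of 8.09% of the 27025 genes with a window. The longer GTCACGTG, which contains the core and was read on both strands as GTCACGTG or CACGTGAC, lay in 8 of the 32 (25%) and in 2.55% of all genes. The core with GT before it and AC after it at once lay in 0 of the 32 and in 0.37% of all genes. Ctsf, Ctsl and Gaa held the core without either of these flanks, and their sequences are not printed. One match of the longer motif is printed for each of the 8 genes that hold it. It is given 5′ to 3′ on the gene's strand with the motif in capitals. A match in the letters is a description of sequence and does not show that a factor was bound in these cells.
Gla, chrX:134601180-134601213, minus strand: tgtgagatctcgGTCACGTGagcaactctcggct
Sgsh, chr11:119355520-119355553, minus strand: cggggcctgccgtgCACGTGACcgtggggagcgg
Lamp1, chr8:13159119-13159152, plus strand: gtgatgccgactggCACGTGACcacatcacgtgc
Ctsd, chr7:142387906-142387939, minus strand: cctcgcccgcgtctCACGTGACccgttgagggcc
Ctsa, chr2:164833747-164833780, plus strand: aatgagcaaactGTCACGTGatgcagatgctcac
Mcoln1, chr8:3500434-3500467, plus strand: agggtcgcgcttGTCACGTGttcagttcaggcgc
Glb1, chr9:114401016-114401049, plus strand: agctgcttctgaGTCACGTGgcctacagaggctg
Arsa, chr15:89477421-89477454, minus strand: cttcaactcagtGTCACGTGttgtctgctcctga

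Total counts lay between 33605610 and 56090654 in PTH samples and between 41618108 and 46757836 in vehicle samples. The members took between 0.797% and 0.922% of each library. Tnfsf11, the osteoclast-inducing ligand RANKL and a well-known PTH target, served as a check of the labels, with 115 to 157 CPM (counts per 1000000 counts of the scaled library) in PTH samples and 0.987 to 1.79 CPM in vehicle samples. Of 12 osteoblast markers, Sp7 (log2 fold change -1.78), Dmp1 (-1.12), Pth1r (-0.70) and Runx2 (-0.33) were downregulated, 8 did not pass and Col1a1 was the most abundant in every sample. The 5 endothelial markers summed to between 5.66 and 6.97 CPM per sample. Among them Kdr, at no more than 2.74 CPM, was upregulated (1.51), Tek was downregulated (-0.49), 2 did not pass and Emcn was not tested. Of 8 adipocyte markers, which summed to between 103 and 128 CPM, Pparg was downregulated (-1.50), 6 did not pass and Lep was not tested. Of 16736 genes that passed the filter on low counts, 7669 were differentially expressed by edgeR's quasi-likelihood test at an adjusted p under 0.05, which is 45.8%.

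PTH changed few of the lysosomal genes, and changed them by little. All 36 passed the filter, and 10 of them (27.8%) were differentially expressed, 5 upregulated and 5 downregulated, against the 45.8% of all tested genes, of which 23.3% were upregulated and 22.5% downregulated. Among the 9952 tested genes with a mean level of at least that of the lowest member (Tfeb, 9.43 CPM), 55.9% were differentially expressed. The upregulated members were Gla, Ctss, Lipa, Npc2 and Ctsh, and the downregulated ones were Tfeb, Sgsh, Idua, Ids and Tpp1. The median log2 fold change was 0.012 for the members and -0.00081 for all tested genes, and the median absolute log2 fold change was 0.12 against 0.35. In 34 of the 36 members (94.4%) the absolute change was under 0.5 on the log2 scale, as it was in 64.4% of all tested genes, and no member reached a log2 fold change of 1, whereas 11.2% of tested genes were both past that size and differentially expressed. The 95% confidence interval of the log2 fold change lay wholly within 0.5 of 0 for 30 members. The median level was 113 CPM for the members and 16.1 CPM for all tested genes, and the sizes of change were not compared at matched level. The share of members was not tested against that of other genes.

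**Figure D1:**
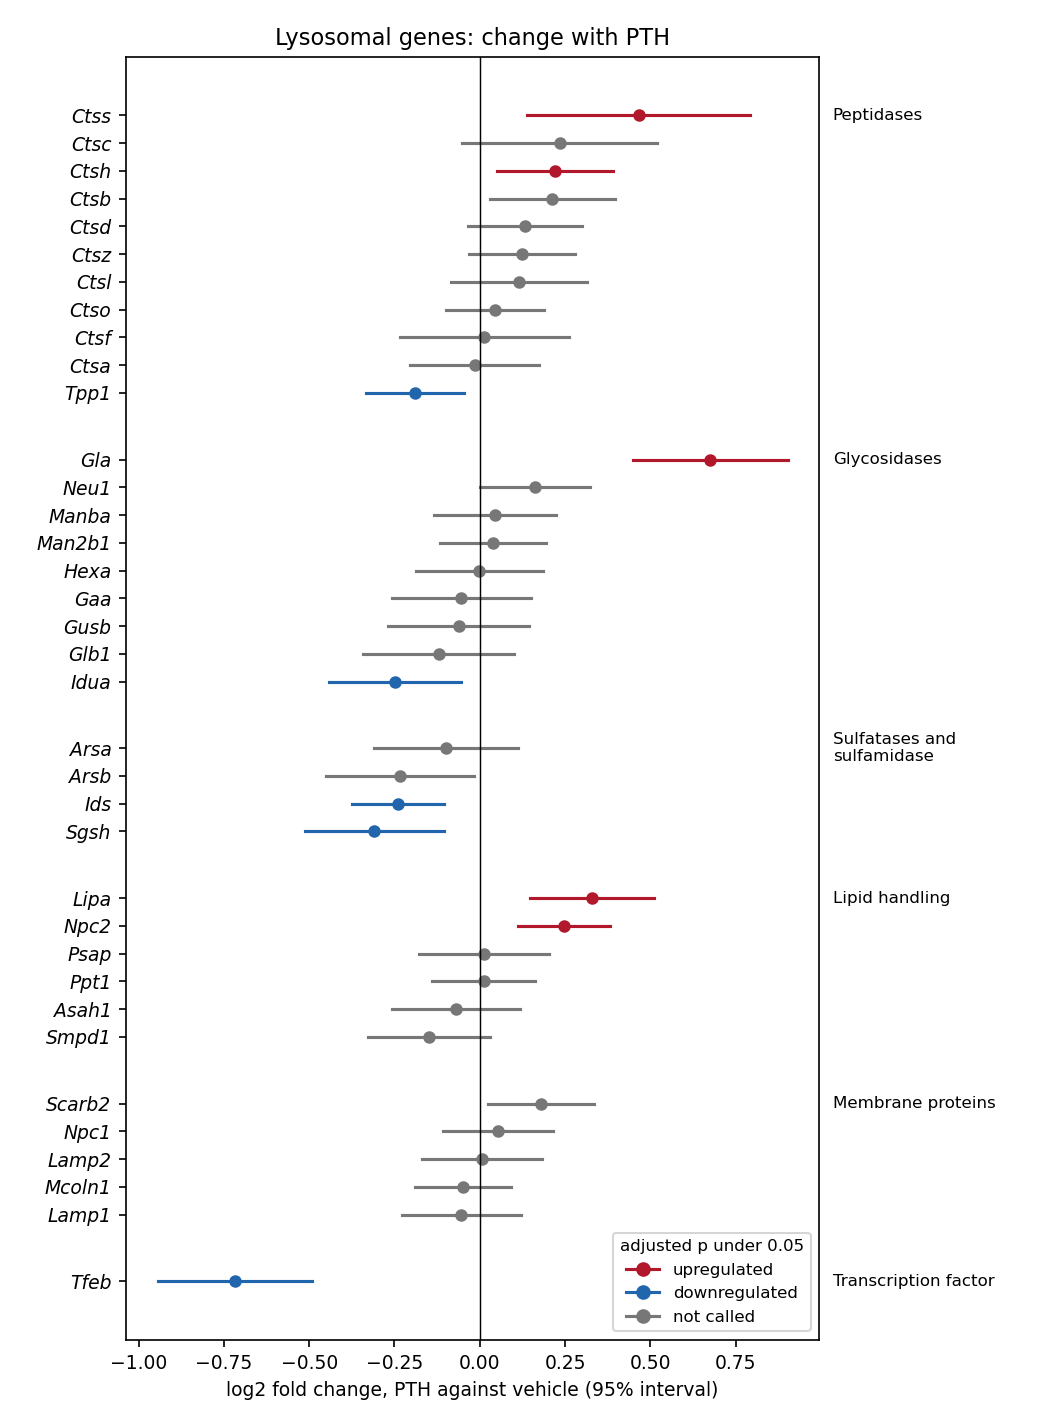
Log2 fold change of each of the 36 lysosomal genes (points) with its 95% confidence interval (lines), PTH against vehicle, n = 4 each, grouped by role as named on the right. Gla at 0.67 and Tfeb at -0.72 lie farthest from 0, and the 5 membrane proteins all lie in grey around 0.

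In 8 members no PTH sample overlapped any vehicle sample, compared with 43.0% of all tested genes. PTH was higher in 4 members, Gla, Lipa, Npc2 and Scarb2 (21.2% of all tested genes), and lower in 4, Tpp1, Ids, Sgsh and Tfeb (21.8% of all tested genes), and for each of these the exact two-sided permutation test gave p = 0.0286, the smallest that 4 against 4 samples allow. Scarb2 was among the 8 without passing edgeR's test across genes. Ctss, Ctsh and Idua passed edgeR's test although their treatments overlapped, with exact permutation p = 0.0857, 0.0571 and 0.0571.

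The peptidases degrade protein, and most of the cathepsins among them are cysteine proteases. Of the 11, Ctss and Ctsh were upregulated, Tpp1 was downregulated and 8 did not pass, with a median log2 fold change of 0.12. Ctss, the cathepsin of antigen-presenting cells (chromosome 3, 95526786 to 95556403 in the GRCm38 annotation, as are the positions below), was at 69.1, 80.8, 72.3 and 80.6 CPM in PTH samples 1 to 4. In vehicle samples 1 to 4 it was at 51.4, 42.3, 48.9 and 76.6 CPM, a log2 difference of 0.47 (SE 0.15, adjusted p = 0.0232 by edgeR's quasi-likelihood test). Vehicle 4 stood above PTH 1 and PTH 3, while the other vehicle samples lay below every PTH sample. Without vehicle 4 the log2 fold change of Ctss was 0.67. The call was lost without PTH 4 and without vehicle 1, 2 or 3, with an adjusted p of up to 0.0759 by edgeR's test, and also with an offset for transcript length (log2 fold change 0.28, adjusted p = 0.139), with no filter on low counts (0.0655) and without both PTH 1 and PTH 2 (0.0613).

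Ctss is best known from macrophages, so the 16 macrophage markers were set beside it. All 16 had a positive log2 fold change (median 0.33). Tyrobp, Lyz2, Cd14 and Cd53 were upregulated, 4 of 16 (25%, near the 23.3% of all tested genes). The summed level of the list was 1811, 2286, 2196 and 1986 CPM in PTH samples 1 to 4 and 1420, 1160, 1303 and 1897 CPM in vehicle samples 1 to 4. Vehicle 4 was thus the highest of its group in the marker sum as in Ctss. Leaving out Lyz2, which makes up most of that sum, the other 15 markers summed to between 624 and 692 CPM with PTH and to 531, 412, 466 and 716 CPM in vehicle samples 1 to 4. Without vehicle 4, 14 of the 16 markers were upregulated in place of 4, while 3680 genes in all were upregulated in place of 3907. Vehicle 4 had the highest macrophage marker sum of the vehicle samples, so leaving it out lowers the vehicle mean of that sum. In the summed osteoblast markers, vehicle 4 was also the highest vehicle sample, at 87934 CPM against 76846 to 84637 CPM. The same held for Sp7, at 142 CPM against 74.8 to 109 CPM in vehicle samples 1 to 3. In bulk samples, a different number of cells of one type and a different amount of RNA per cell cannot be told apart. The part of macrophages in the Ctss result was not tested.

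**Figure D2:**
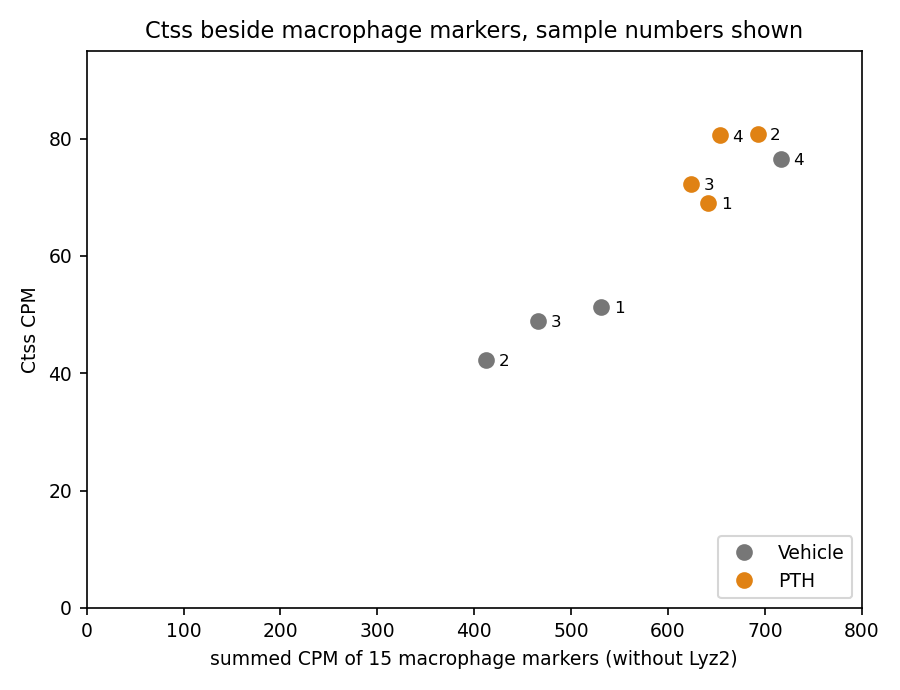
Ctss in CPM (vertical axis) against the summed CPM of 15 macrophage markers without Lyz2 (horizontal axis), 1 point per sample, numbered by sample, grey for vehicle and orange for PTH. Vehicle 4, at 76.6 CPM of Ctss and 716 CPM of markers, lies apart from vehicle 1 to 3, within the PTH range of Ctss and beyond every PTH sample in markers (624 to 692 CPM).

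Ctsc, the peptidase that activates granule proteases of leukocytes, showed the same sample pattern, with 33.1 to 37.0 CPM in PTH samples and 27.9, 22.7, 29.4 and 38.8 CPM in vehicle samples 1 to 4. Its log2 fold change was 0.23 and did not pass edgeR's test (adjusted p = 0.167), but it passed without vehicle 4, at 0.39 (adjusted p = 0.00904). Ctsh, an aminopeptidase, was at 163, 144, 159.8 and 149.5 CPM in PTH samples 1 to 4 and at 149, 134, 124 and 121 CPM in vehicle samples 1 to 4. Vehicle 1 reached into the PTH range, and the other vehicle samples lay below every PTH sample. The log2 fold change of Ctsh was 0.22 (SE 0.08, adjusted p = 0.0354 by edgeR's test). Its call held in 2 of the 8 fits that left out 1 sample, those without PTH 2 and without vehicle 1, with an adjusted p of up to 0.126 in the other 6. It was also lost with no filter on low counts (adjusted p = 0.107), with the length offset (0.0839) and without both PTH 1 and PTH 2 (0.0588).

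The most abundant peptidase, the aspartic protease Ctsd, was at 1570.0, 1334, 1421 and 1561 CPM in PTH samples 1 to 4 and between 1326 and 1352 CPM in the vehicle samples. Its vehicle samples lay close together and PTH 1, 3 and 4 lay above all of them, yet PTH 2 fell inside their range and the log2 fold change of 0.13 did not pass (adjusted p = 0.183 by edgeR's test). Without PTH 2 it was 0.19 and passed (adjusted p = 0.0442). Ctsb, a cysteine protease, was at 1230, 1037, 1077 and 1174 CPM with PTH and at 987, 912, 925 and 1075 CPM with vehicle, a log2 fold change of 0.21 (adjusted p = 0.0571). Vehicle 4 lay above PTH 2, and without PTH 2 or vehicle 4 Ctsb passed at 0.26 (adjusted p = 0.0233 and 0.0452). Some of these loci are shared: the locus of Ctsd holds a further symbol and 671 bases identical to the same-strand Gm49369, and Ctsa and Ctsb overlap opposite-strand genes, Pltp at a mean of 124 CPM and Fdft1 at 47.5 CPM, so their counts may include reads of these neighbours. Ctsa, the protective protein of the sialidase complex, and Ctsf, Ctsl, Ctso and Ctsz had log2 fold changes between -0.02 and 0.12 and passed neither in this fit nor with any 1 sample left out.

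Tpp1, a tripeptidyl peptidase whose loss causes a childhood neuronal storage disease in humans, was the only downregulated peptidase. It was at 141, 121, 129 and 139 CPM in PTH samples 1 to 4 and at 146, 153, 155 and 152 CPM in vehicle samples 1 to 4. All PTH samples lay below all vehicle samples, with a log2 fold change of -0.19 (SE 0.07, adjusted p = 0.0333 by edgeR's test). The call held in 2 of the 8 fits that left out 1 sample, those without PTH 1 and without PTH 4, and the adjusted p reached 0.0979 in the other 6. It was also lost with DESeq2 size factors (adjusted p = 0.0584) and with the sample numbers as a block (adjusted p = 0.0779).

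Gla had the largest rise of the set. It encodes alpha-galactosidase A, which removes terminal galactose from glycolipids and is deficient in Fabry disease, and lies on the minus strand of chromosome X (134588149 to 134601125). It was at 29.1, 24.3, 26.5 and 28.6 CPM in PTH samples 1 to 4 and at 16.5, 15.1, 16.1 and 20.4 CPM in vehicle samples 1 to 4. The lowest PTH sample lay above the highest vehicle sample. Vehicle 4 was the highest vehicle sample for Gla, as it was for the macrophage and the osteoblast marker sums. PTH 2 was the lowest PTH sample for Gla and for the osteoblast marker sum, and the highest for the macrophage marker sum. The part of macrophages in the level of Gla was not tested. The rise was 59.7% (95% confidence interval 36.4% to 86.8%), a log2 fold change of 0.67 (SE 0.10, adjusted p = 2.26e-04 by edgeR's quasi-likelihood test), and Gla passed in all 16 alternative fits.

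Of the other 8 glycosidases, Idua was downregulated and 7 did not pass, and the median log2 fold change of the 9 was -0.0010. Idua, the iduronidase that acts in the breakdown of dermatan and heparan sulfate, was at 15.9, 19.3, 15.8 and 15.7 CPM in PTH samples 1 to 4 and at 19.4, 21.1, 19.5 and 19.1 CPM in vehicle samples 1 to 4. PTH 2 stood apart from the other PTH samples and reached the vehicle range. Its log2 fold change was -0.25 (SE 0.09, adjusted p = 0.0379 by edgeR's test) and was -0.31 without PTH 2. The call held without PTH 2, vehicle 1 or vehicle 4 and was lost without any 1 of the other 5 samples, with an adjusted p of up to 0.0966. Idua overlaps Dgkq, a gene on the opposite strand with a mean of 18.8 CPM, and whether the counting used strand is not given in the sources used here.

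Gaa, the acid glucosidase of glycogen, and the beta-galactosidase Glb1, the beta-glucuronidase Gusb, the hexosaminidase Hexa and the mannosidases Man2b1 and Manba had log2 fold changes between -0.12 and 0.04. None of them passed in any alternative fit. Glb1 shares its locus with Tmppe, a gene on the same strand with a mean of 13.3 CPM. The sialidase Neu1 was at 33.1, 30.7, 36.2 and 36.8 CPM with PTH and at 30.1, 30.3, 30.5 and 31.4 CPM with vehicle. Only PTH 2 fell within its vehicle range, the log2 fold change was 0.16 (adjusted p = 0.0918 by edgeR's test), and without PTH 2 it was 0.22 and passed (adjusted p = 0.0222).

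All 4 sulfatases and sulfamidases, which strip sulfate from glycosaminoglycans and sulfatides, had a negative log2 fold change, with a median of -0.24. Of these, Ids and Sgsh were downregulated. Ids, the iduronate sulfatase deficient in Hunter syndrome, was at 93.3, 82.9, 89.5 and 89.9 CPM in PTH samples 1 to 4 and at 99.2, 109, 107 and 105 CPM in vehicle samples 1 to 4. The 2 treatments did not overlap, and the log2 fold change of -0.24 (SE 0.06, adjusted p = 0.00695 by edgeR's test) passed in all 16 alternative fits.

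Sgsh, the sulfamidase of heparan sulfate, was at 27.3, 21.1, 23.2 and 27.2 CPM in PTH samples 1 to 4 and at 29.0, 32.8, 29.6 and 31.3 CPM in vehicle samples 1 to 4. Every PTH sample lay below every vehicle sample, a log2 fold change of -0.31 (SE 0.09, adjusted p = 0.0169). The call was lost without PTH 3 or without vehicle 2 (adjusted p = 0.0586 and 0.0595, edgeR's test). Arsb, the sulfatase of dermatan and chondroitin sulfate, ranged from 71.5 to 105 CPM with PTH and from 98.8 to 108 CPM with vehicle, a log2 fold change of -0.23 that did not pass (adjusted p = 0.0756). PTH 1 was its only PTH sample within the vehicle range, and without PTH 1 the log2 fold change was -0.33 and passed (adjusted p = 0.00585). Arsa, the sulfatase of sulfatides, was at -0.10 (adjusted p = 0.435).

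**Figure D3:**
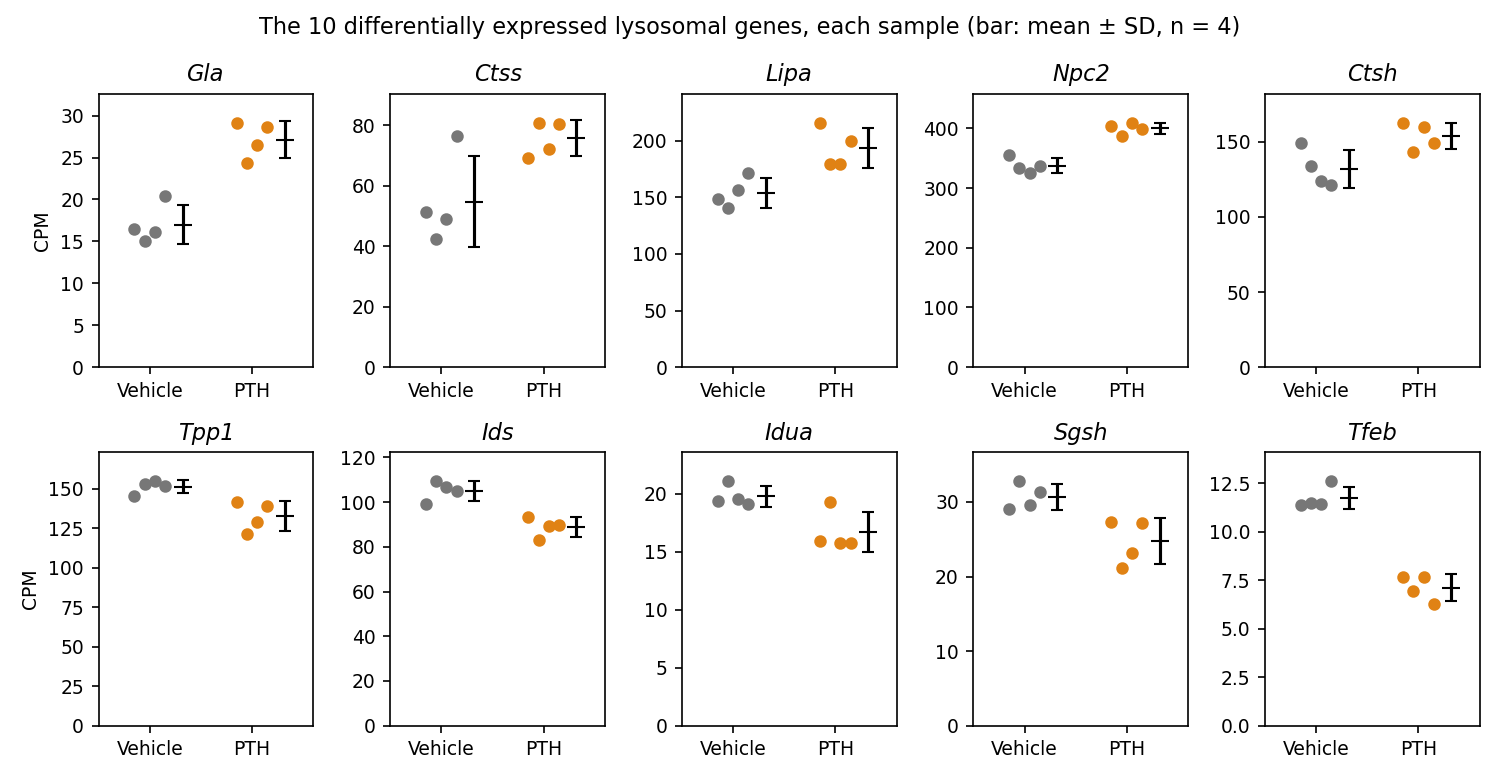
CPM in each of the 4 vehicle (grey) and 4 PTH (orange) samples for the 10 differentially expressed members, with samples 1 to 4 from left to right in each treatment and bars for the mean ± SD. The treatments are separate in Gla, Lipa, Npc2, Tpp1, Ids, Sgsh and Tfeb and overlap in Ctss, Ctsh and Idua.

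Of the 6 genes of lipid handling, Lipa and Npc2 were upregulated and none was downregulated. Lipa encodes the acid lipase that frees fatty acids and cholesterol from the triglycerides and cholesteryl esters delivered to lysosomes. It was at 216, 179.6, 179.8 and 199.5 CPM in PTH samples 1 to 4 and at 149, 140.4, 156 and 171 CPM in vehicle samples 1 to 4. The treatments did not overlap. Vehicle 4, the highest of its group in the macrophage and the osteoblast marker sums, was also the highest vehicle sample for Lipa. The rise was 25.7% (95% confidence interval 10.8% to 42.5%), a log2 fold change of 0.33 (SE 0.08, adjusted p = 0.00632 by edgeR's test), and it passed in all 16 alternative fits.

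Npc2, the soluble protein that hands cholesterol to the membrane transporter Npc1, was at 404, 388, 409 and 399.8 CPM in PTH samples 1 to 4 and at 356, 333, 325 and 336 CPM in vehicle samples 1 to 4. The samples of each treatment lay close together and the treatments did not overlap. The log2 fold change was 0.25 (SE 0.06, adjusted p = 0.0059 by edgeR's test), 18.6% on the linear scale, and passed in all 16 alternative fits. Its partner Npc1 was at 56.8 ± 3.55 CPM (SD, n = 4) with PTH and 54.7 ± 4.09 CPM with vehicle, with overlapping samples, and did not pass (log2 fold change 0.05, adjusted p = 0.584). The difference between the changes of Npc2 and Npc1 was not tested.

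The sphingolipid enzymes did not pass. Smpd1, the acid sphingomyelinase, was at -0.15 on the log2 scale (adjusted p = 0.163), and Asah1, the acid ceramidase, at -0.07 (adjusted p = 0.538). Psap, the precursor of the saposins that present these lipids to their enzymes, was at 1397, 1092, 1149.7 and 1285 CPM with PTH and at 1227, 1196, 1195 and 1265 CPM with vehicle. Its vehicle samples fell inside the PTH range (log2 fold change 0.01, adjusted p = 0.924). Ppt1, which removes palmitate from proteins, also had a log2 fold change of 0.01, and it overlaps Cap1, an opposite-strand gene with a mean of 284 CPM.

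None of the 5 membrane proteins passed edgeR's test, and their median log2 fold change was 0.01. Lamp1, a major glycoprotein of the lysosomal membrane, was at 839, 664, 730.5 and 777 CPM in PTH samples 1 to 4 and at 768, 789, 783 and 785 CPM in vehicle samples 1 to 4. The vehicle samples fell inside the PTH range, and the 95% confidence interval of the log2 fold change ran from -0.23 to 0.12. Lamp2, which also serves in chaperone-mediated autophagy, had an interval from -0.17 to 0.18, and Mcoln1, a calcium channel of the membrane, one from -0.19 to 0.09. Scarb2, a membrane-spanning protein of lysosomes, was at 139.8, 117.7, 119.8 and 135 CPM with PTH and at 116, 117.6, 111 and 108 CPM with vehicle. Its PTH samples were all higher, but PTH 2 exceeded vehicle 2 only narrowly, and the log2 fold change of 0.18 missed the threshold (adjusted p = 0.0582 by edgeR's test), which it passed without PTH 2 at 0.23 (adjusted p = 0.0201).

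Tfeb had the largest fall of the set. It lies on the plus strand of chromosome 17 (47737030 to 47792419) and was at 7.65, 6.92, 7.67 and 6.25 CPM in PTH samples 1 to 4 and at 11.4, 11.5, 11.5 and 12.6 CPM in vehicle samples 1 to 4. Every PTH sample lay below every vehicle sample, and each sample held at least 230 counts of it. The level fell by 39.2% (95% confidence interval -48.0% to -28.9%), a log2 fold change of -0.72 (SE 0.10, adjusted p = 1.33e-04 by edgeR's quasi-likelihood test), in all 16 alternative fits past the threshold. TFEB is regulated largely by where its protein sits in the cell, which these RNA levels do not measure.

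Of the 8 members with the GTCACGTG motif, Gla was upregulated, Sgsh was downregulated and 6 did not pass, with a median log2 fold change of -0.05. Of the other 24 members with a window, 3 were upregulated and 4 downregulated, with a median of 0.01. The share called was 25% and 29.2%, against 45.8% of all tested genes. The printed sequences of Gla and Sgsh hold the same 8 letters in opposite orientation, and both orientations also occur among the 6 that did not pass. Whether the motif or its orientation bears on the changes was not tested.

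Read per kilobase of the longest annotated transcript, the levels of the members spanned from Ctsd, at 631 ± 5.29 CPM per kb (SD, n = 4) in vehicle samples, to Tfeb, at 5.01 ± 0.25. Psap followed Ctsd at 459 ± 12.4 CPM per kb, then Lamp1 at 351 ± 4.16, Ctsb at 206 ± 15.6 and Ctsz at 169 ± 9.89, with no overlap between neighbours. Lamp2 at 144 ± 4.66 and Hexa at 141 ± 4.69 CPM per kb overlapped, as did Npc2 at 102 ± 3.93 and Gaa at 101 ± 5.22. The first 10 places, closed by Ctsa, had the same order with PTH. Below them, between place 11 and 20, many neighbours overlapped in vehicle samples, and there Ctss moved from place 17 to 12 and Lipa from 19 to 14 with PTH. Gla, among the least abundant members, stood at 5.36 ± 0.74 CPM per kb with vehicle and at 8.56 ± 0.69 with PTH, place 35 and 32. These places use 1 annotated transcript per gene and not the isoforms the cells used.

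Beyond the treatment, the members varied together within the PTH samples. PTH 1 was the highest PTH sample in 27 of 36 members and PTH 2 the lowest in 29. Both held for 25 members (69.4%), for 17.1% of all tested genes and for 24.0% of those at or above the level of the lowest member. The full order of PTH 1, 4, 3 and 2 from high to low was seen in 24 members (66.7%). It was seen in 12.3% of all tested genes and in 17.9% of those at or above the level of the lowest member. The same order held for the total counts of the 4 libraries. The CPM scale divides by the total over the tested genes times a scaling factor (TMM). This factor was 0.914, 0.990, 0.969 and 0.957 in PTH samples 1 to 4 and between 1.03 and 1.06 in vehicle samples. Without that factor, the members took 0.903%, 0.797%, 0.838% and 0.893% of the counts in PTH samples 1 to 4. In vehicle samples they took between 0.873% and 0.922%.

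The summed level of the 36 members was 9879, 8063, 8656 and 9333 CPM in PTH samples 1 to 4 and stayed between 8466 and 8706 CPM in the vehicle samples. The 35 other lysosomal proteins listed below shared this order in their sum, at 5432, 4475, 4944 and 5095 CPM in PTH samples 1 to 4. Their vehicle sums lay between 4723 and 4954 CPM. The sum of the 12 osteoblast markers had the same order, at 106142, 73362, 74005 and 91015 CPM in PTH samples 1 to 4. The coefficient of variation was larger with PTH than with vehicle in 30 of 36 members and in 64.5% of all tested genes. Among tested genes at or above the level of the lowest member, this share was 69.1%. The median coefficient with PTH and with vehicle was 9.04% and 4.39% for the members and 9.06% and 6.21% for those genes. Lamp1, for example, varied by 9.81% among PTH samples and by 1.19% among vehicle samples. Among the 10 called members, Gla, Lipa, Tpp1, Ids and Sgsh followed the order and Ctss, Ctsh, Npc2, Idua and Tfeb did not. The first 2 principal components of the tested genes separated the treatments and then, on the second, PTH 1 at 43.6 from PTH 2 at -42.0, with the vehicle samples between -6.34 and 1.97. The part of library size or of the culture in this spread was not tested. Without PTH 2, 9 members were upregulated in place of 5, while 3807 genes in all were upregulated in place of 3907. Without both PTH 1 and PTH 2, a setting added after the data were seen, the median log2 fold change of the members was 0.0015.

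**Figure D4:**
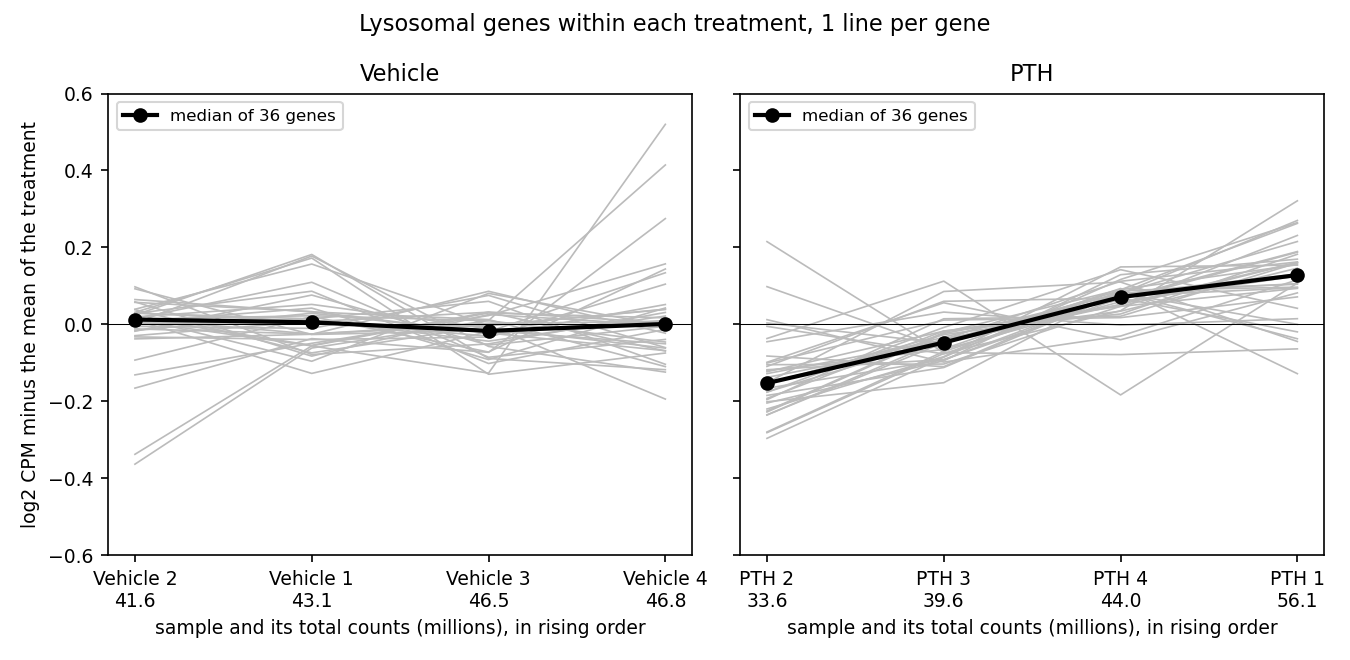
Log2 CPM of each member minus its mean over the 4 samples of its treatment (grey lines, 1 per gene, with the black line for the median of 36), in vehicle samples (left) and PTH samples (right), each ordered by rising total counts. The PTH lines mostly climb from PTH 2 to PTH 1, and the vehicle lines have no shared slope.

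The other genes of the lysosomal system were read from 4 further lists. In these lists 90 of 93 genes were tested, and 20 were upregulated and 12 downregulated (35.6% together, against 45.8% of all tested genes). Of the 22 tested subunits of the vacuolar ATPase, 9 were upregulated (40.9%, against 23.3% of all tested genes) and none was downregulated (22.5% of all tested genes), 20 had a positive and 2 a negative log2 fold change, and the median was 0.22. Atp6v1b1, Atp6v1e2 and Atp6v1g3 were at or near 0 and were not tested. The summed level of the 25 subunit genes was 1839, 1733, 1827 and 1816 CPM in PTH samples 1 to 4 and 1549, 1546, 1542 and 1567 CPM in vehicle samples 1 to 4. The treatments did not overlap in this sum, and PTH 1 exceeded PTH 3 here by little, unlike in the summed level of the members.

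Atp6v0b, a proton-carrying subunit of the membrane sector, rose most, from 70.7 to 83.2 CPM with vehicle to 107 to 147 CPM with PTH (log2 fold change 0.72, SE 0.10, adjusted p = 8.42e-05 by edgeR's test). The accessory subunit Atp6ap2 had the smallest change among the called subunits, 0.24 (adjusted p = 0.0219). Its call held in 10 of 16 alternative fits and was lost without PTH 1, PTH 4, vehicle 1 or vehicle 2, with an adjusted p of up to 0.0993 in these 4. The longest annotated transcripts of Atp6v0b and Atp6v1f are 1000 and 806 bases, short beside a median of 3133 bases for all tested genes. With an offset for transcript length, 7 subunits were upregulated and the median was 0.15, while the median of all tested genes moved from -0.00081 to -0.083.

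**Figure D5:**
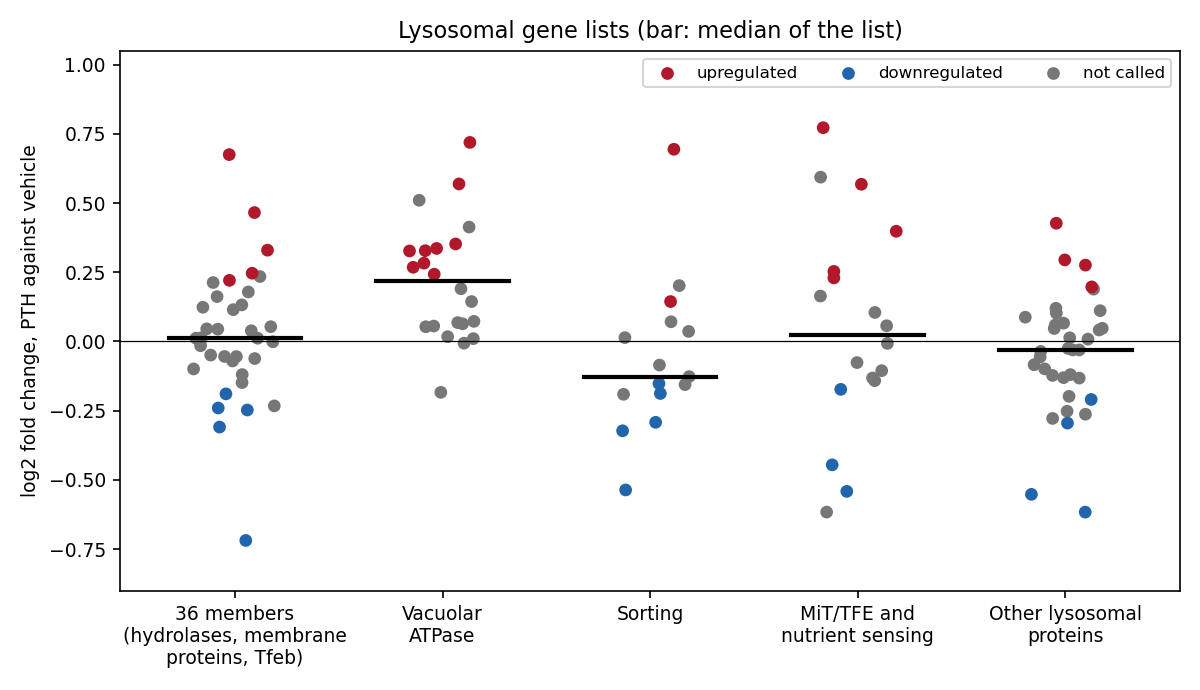
Log2 fold change, PTH against vehicle, of each tested gene (points; red upregulated, blue downregulated, grey not called) in the 36 members and in the 4 further lists, with a bar for the median of each list. The bar of the vacuolar ATPase lies at 0.22, that of the members at 0.01 and that of sorting at -0.13.

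The sorting machinery held 2 upregulated and 5 downregulated genes of 15, 46.7% together and near the 45.8% of all tested genes, with a median of -0.13. Vps29, a subunit of the retromer that returns sorting receptors to the Golgi apparatus, rose by 0.69 on the log2 scale (adjusted p = 3.96e-04 by edgeR's test). Gga2, an adaptor for the mannose phosphate receptors, fell by 0.54 (adjusted p = 5.44e-05). Both had treatments that did not overlap.

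Among the relatives and regulators of TFEB, 5 of 18 genes were upregulated and 3 downregulated, 44.4% together and near the 45.8% of all tested genes. Flcn, whose protein acts with the Rag GTPases in the nutrient-dependent retention of TFEB in the cytoplasm, was at 68.2, 73.2, 58.8 and 62.9 CPM in PTH samples 1 to 4 and at 36.5, 38.0, 42.6 and 36.7 CPM in vehicle samples 1 to 4. All PTH samples were higher, and the log2 fold change was 0.77 (SE 0.08, adjusted p = 1.15e-05 by edgeR's test). Mitf fell from 10.1 to 11.2 CPM with vehicle to 6.66 to 8.82 CPM with PTH, or by 0.54 on the log2 scale (adjusted p = 0.002), which is the direction of Tfeb. Tfe3, the most abundant of the 3 factors per kilobase, was at -0.11 and did not pass (adjusted p = 0.197).

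In the list of other lysosomal proteins, 4 of 35 were upregulated and 4 downregulated (22.9% together, against 45.8% of all tested genes), with a median of -0.03. Ggh, which trims glutamates from folates, had the largest rise (log2 fold change 0.43, adjusted p = 0.00611 by edgeR's test), and Pla2g15, a lysosomal phospholipase, the largest fall (-0.62, adjusted p = 6.21e-05). Ctsk, the collagen-degrading cathepsin of osteoclasts, was at 554, 384, 454 and 465 CPM with PTH and 491, 471, 443 and 393 CPM with vehicle and did not pass (log2 fold change 0.05, adjusted p = 0.753). Its samples overlapped across the whole range, and of the 10 osteoclast markers, which include Ctsk, Dcstamp was at 0 in all samples, Calcr was at 0 in 6 of 8 and Nfatc1 was the 1 upregulated (log2 fold change 1.21). The other osteoclast markers were not all near 0: Itgb3 was at 30.6 to 43.2 CPM, Acp5 at 17.9 to 26.5 CPM, Mmp9 at 5.93 to 11.1 CPM and Atp6v0d2 at 3.03 to 5.90 CPM over the 8 samples, and none of these passed. The part of osteoclasts in the levels of the lysosomal genes was not tested.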

How the data were processed

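The authors prepared poly(A) libraries, mapped paired reads with HISAT2 (build GRCm38), used SAMtools for sorting and ran StringTie2 for transcript assembly. They deposited unnormalized counts per gene, made by StringTie2's companion script. Its read length, the strand setting and the annotation version are not given in the sources used here. Samples were grouped by label. Counts were scaled by TMM, filtered with filterByExpr (minimum count 10, minimum total 15) and tested across 16736 genes with edgeR 4.0.16 (quasi-likelihood F-test, Benjamini-Hochberg adjustment, adjusted p under 0.05) in R 4.3.3, a pipeline tested on simulated data. DESeq2 1.42.0 was an alternative. Non-overlap and exact two-sided permutation tests used log2(CPM + 0.1). Positions and transcript lengths came from GENCODE M21. Intervals cover the spread between samples, and counts of 33605610 to 56090654 per sample leave at least 230 counts for each member. All members are named. In the other lists, the called genes with the largest and smallest log2 fold change, Tfe3, Mitf and Ctsk are named, and items withheld from the text are not reported here. The members and lists were chosen with earlier results of these data known. Same-numbered samples did not vary together (correlations between -0.04 and 0.03), so numbers were not used as pairs.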

Additional observations from a re-analysis of the deposited data

Results flagged for a closer look

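In each treatment of the named genes, the sample farthest from the rest was compared with the range of its 4 samples. Of 94 such groups, 5 held a sample whose gap to its neighbour, as a share of the range, passed Dixon's 95% critical value, which about 5% of groups do by chance. Idua was at 19.3 CPM in PTH 2 and between 15.7 and 15.9 CPM in the other PTH samples. Tfeb was at 12.6 CPM in vehicle 4 and between 11.4 and 11.5 CPM in the other vehicle samples. Ctso was at 47.1 CPM in vehicle 3 and between 43.3 and 43.7 CPM in the others. Pla2g15 was at 31.0 CPM in PTH 1 and between 25.7 and 25.9 CPM in the other PTH samples. Tnfsf11, the label check, was at 157 CPM in PTH 1 and between 115 and 120.2 CPM in the other PTH samples.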

How the results depend on the processing

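Of 576 recomputed log2 fold changes of members (36 members in 16 alternative fits), 497 kept their direction and side of the threshold, 31 lost the call, 11 gained one and 37 changed sign. No differentially expressed member changed sign, and Gla, Lipa, Npc2, Ids and Tfeb passed in every fit. With no filter on low counts, 3 members and 12 other lysosomal genes were upregulated, and with an offset for transcript length 3 and 13, against 5 and 20 in the reported fit. Over all genes, 3509 were upregulated with no filter and 3166 with the length offset, against 3907 in the reported fit. When a size of 1 on the log2 scale was also required, 1882 genes passed, and the members and the other lysosomal genes had 0 upregulated and 0 downregulated. Leaving out 1 sample gave 3 to 9 upregulated members (9 without PTH 2, 3 without PTH 4, vehicle 2 or vehicle 3). Downregulated members then numbered 2 to 5 (2 without PTH 3 or vehicle 2, 3 without vehicle 3). Over all genes, leaving out 1 sample gave 3412 to 4119 upregulated, against 3907 in the reported fit. It gave 3259 to 3955 downregulated, against 3762. Upregulated other genes numbered 12 to 20 (12 without vehicle 2). Members without overlap numbered 8 to 14 (13 without PTH 2, 14 without vehicle 4). Leaving out a sample cannot lower the number without overlap, and the share of all tested genes without overlap was not computed for these settings. With the replicate block, 7003 genes passed and 5 members rose and 4 fell, as Tpp1 lost its call, with 15 and 9 other genes. The sample numbers did not pair the samples. Signs turned only in genes that did not pass. No filter moved every member alike, by -0.040 to -0.031 on the log2 scale (all genes of the reported fit, median -0.036), and DESeq2 size factors and halved counts moved every member by 0.0075 to 0.011, so those sign changes are common shifts of values near 0. With no filter the log2 value was -0.018 for Ctsf, -0.022 for Ppt1, -0.022 for Psap and -0.027 for Lamp2. With the length offset the log2 value was -0.063 for Ctsf, -0.039 for Ctsz, -0.026 for Ppt1, -0.020 for Psap, -0.0012 for Lamp2 and -0.10 for Ctsk. Without both PTH 1 and PTH 2, chosen after the data were seen, the log2 value was -0.025 for Ctsf, 0.0095 for Hexa, -0.0065 for Psap and -0.015 for Npc1. With DESeq2 size factors the log2 value was 0.0096 for Hexa. With counts halved the log2 value was 0.0090 for Hexa. Leaving out 1 sample gave -0.094 to 0.054 for Ctsa, -0.11 to 0.11 for Ctsf, -0.14 to 0.029 for Gaa, -0.16 to 0.014 for Gusb, -0.069 to 0.080 for Hexa, -0.0059 to 0.11 for Manba, -0.13 to 0.013 for Asah1, -0.041 to 0.071 for Ppt1, -0.057 to 0.075 for Psap, -0.11 to 0.012 for Lamp1, -0.051 to 0.078 for Lamp2 and -0.051 to 0.14 for Ctsk. The causes of these shifts were not tested. Depth left at least 230 counts for each member, and the smallest called change among members was the fall of Tpp1, by 0.19 on the log2 scale.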
